A study of Mus musculus with 4 samples.

Results

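Chemokines are small secreted proteins that direct the movement of leukocytes and of stem and progenitor cells through G protein-coupled receptors, and they fall into CC, CXC and CX3C classes by the spacing of their first cysteines. Many are silent or low in resting stromal cells and are switched on by interferon or by NF-kappaB signalling, whereas Cxcl12 is made constitutively by mesenchymal cells of many tissues. In the heart, stromal cells and resident macrophages are known sources of the monocyte and neutrophil attractants after injury. The genes described here were Ccl2, Ccl5, Ccl7, Ccl8, Cxcl1, Cxcl5, Cxcl9, Cxcl10, Cxcl12 and Cx3cl1. They were taken as every probe that carried one of these names in the array files, which gave 13 probes on 22 spots for 10 genes, of 55675 probes on the array. All 10 genes were among the 16605 named genes well above background on at least 1 array.

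The cells were cardiac mesenchymal progenitors (CMPs), Sca-1+ stromal cells grown from the hearts of adult C57BL/6 mice, taken from the atria by the study's methods. Untreated cells (CMP control, labelled day 0) were compared with cells that had received Oct3/4, Sox2, Klf4 and c-Myc on Sendai virus vectors (OSKM-CMPs) at day 4, day 6 and day 8, and by the methods the transduced cells were kept in a reprogramming medium that lacked leukemia inhibitory factor. RNA was read in the Cy3 channel of Agilent mouse arrays, with 1 array for each of the 4 conditions, so no difference has a replicate check and no p-value is given. The control was a single untreated culture at a single time, so that the factors, the virus, the medium and time in culture cannot be told apart.

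A probe counted as detected where the array software marked it well above background, and between 56.6% and 59.6% of all probes were so on an array. Signals are given as multiples of the 75th percentile signal of the same array, called relative signal below. Changes are log2 differences from the CMP control, with ± for 1 SD from the error model of the array software, which covers the spot and the array but neither the culture nor the RNA preparation. Genes are counted as higher or lower, and are said to have risen or fallen, where the change over the control was at least 2-fold. Shares of a day 8 change are taken on the log2 scale. Levels of different probes are not compared, except as parts of a summed signal. In RNA from whole cultures, a change in the number of expressing cells and a change in RNA per cell cannot be told apart.

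All 13 chemokine probes were well above background on the day 4, day 6 and day 8 arrays. On the control array 10 of them were, and the exceptions were both probes for Cxcl9 and one of the probes for Cxcl10. At day 4, 4 of the 10 genes were at least 2-fold higher than in the CMP control, set against 10.1% of all measured genes, and 0 were as much lower, against 8.33%. At day 6 the count was 5 higher, against 11.1% of all genes, and 0 lower, against 10%. At day 8 it was 6 higher, against 12.4%, and 0 lower, against 10.6%. The members were chosen with earlier results of these data known, so these shares describe them and are no test of enrichment. The median change of the chemokine genes was 0.80, 0.91 and 1.13 on days 4, 6 and 8, while the median over all genes was 0.00, -0.02 and -0.03. Scaling each array by its median shifted all genes, to a median change of -0.30 at day 8. With this scale 9.30% of all genes were higher at day 8 and 16.0% lower, and 4 chemokine genes were higher and 1 lower.

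**Figure D1:**
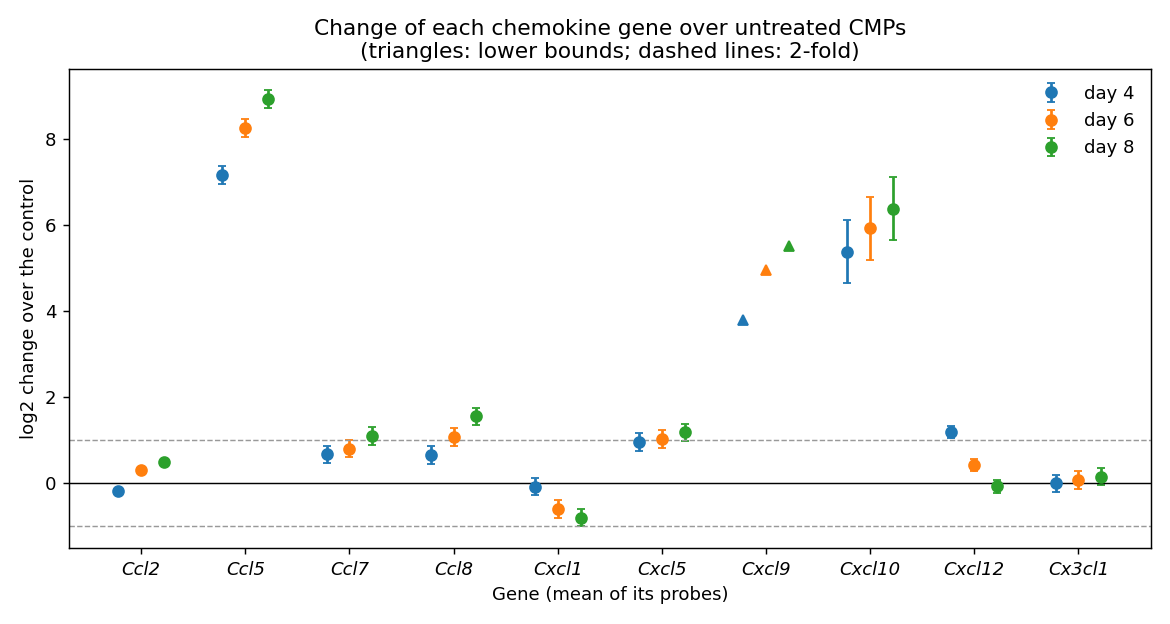
The log2 change of each chemokine gene over the CMP control on days 4, 6 and 8 is plotted for the mean of its probes, with bars of 1 SD from the error model and triangles for lower bounds. Ccl5, Cxcl9 and Cxcl10 stand above 3.7 on all days, while the other genes stay between -0.81 and 1.54.

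The largest rises were those of Ccl5, Cxcl9 and Cxcl10. Ccl5, also known as RANTES, attracts T cells, monocytes and eosinophils through receptors that include Ccr1 and Ccr3. Cxcl9 and Cxcl10 are the interferon-induced ligands of Cxcr3, the receptor of activated T cells and NK cells. By day 4 all 3 genes were well above their level in the CMP control, and each had a larger signal at each later time.

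The relative signal of Ccl5 was 1.06 in the CMP control and 151, 323 and 516 on days 4, 6 and 8. The probe was well above background in untreated CMPs, and each OSKM-CMP array lay above the array before it. The probe, designed to NM_013653 on the minus strand at chr11:83339296-83339355 of mm9, rose by 7.16 ± 0.20, 8.25 ± 0.20 and 8.93 ± 0.20 on these days, or 143-fold, 305-fold and 489-fold. At day 8 it ranked 9 among the rises of all measured genes, where genes not well above background in the control were ranked by their lower bounds. Of the day 8 log2 change, 80.2% was present at day 4, and the later steps were 1.09 from day 4 to day 6 and 0.68 from day 6 to day 8. From day 4 to day 8 the signal itself still grew 3.41-fold.

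Cxcl10, also known as IP-10, had a probe to NM_021274 at chr5:92775781-92775840 of mm9, minus strand. Its relative signal was 0.606 in the CMP control and 60.0, 82.1 and 97.4 on days 4, 6 and 8. This was a rise of 6.63 ± 0.20, 7.08 ± 0.20 and 7.33 ± 0.20, that is 99.0-fold, 136-fold and 161-fold, with 90.5% of the day 8 change present at day 4. A probe to AK156907 at chr5:92776616-92776675 was not well above background in the control and stood at relative signals of 0.102, 0.160 and 0.254 in OSKM-CMPs. Set against the lowest control signal well above background, it was at least 3.80-fold, 5.95-fold and 9.46-fold higher. From day 4 to day 8 the probes changed by 0.70 ± 0.20 and 1.32 ± 0.22.

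Cxcl9, also known as MIG, was not well above background in the CMP control on either of its probes to NM_008599. On the probe at chr5:92752191-92752250, minus strand, the relative signal was 0.560, 1.26 and 1.80 on days 4, 6 and 8, which is at least 20.8-fold, 46.7-fold and 66.8-fold above the control. On the probe at chr5:92752796-92752855 it was 0.251, 0.555 and 0.836, which is at least 9.32-fold, 20.7-fold and 31.1-fold above the control. The probes differed in these bounds but moved alike between the OSKM-CMP arrays, where both were measured. From day 4 to day 6 they changed by 1.17 ± 0.20 and 1.15 ± 0.21, and from day 6 to day 8 by 0.52 ± 0.20 and 0.59 ± 0.20.

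The fold changes of the dim probes depended on how background was handled. With normexp background correction, which adds an offset of 50 to every signal, the change of Cxcl9 was 1.72, 2.62 and 3.10 on the 3 days, and that of Cxcl10 as the mean of its probes was 3.54, 3.93 and 4.25 in place of 5.38, 5.93 and 6.38. With dim values raised to the lowest signal well above background, that mean was 4.28, 4.83 and 5.29. Ccl5 was bright in OSKM-CMPs and ranged from 8.67 to 9.05 at day 8 over the alternatives tried.

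**Figure D2:**
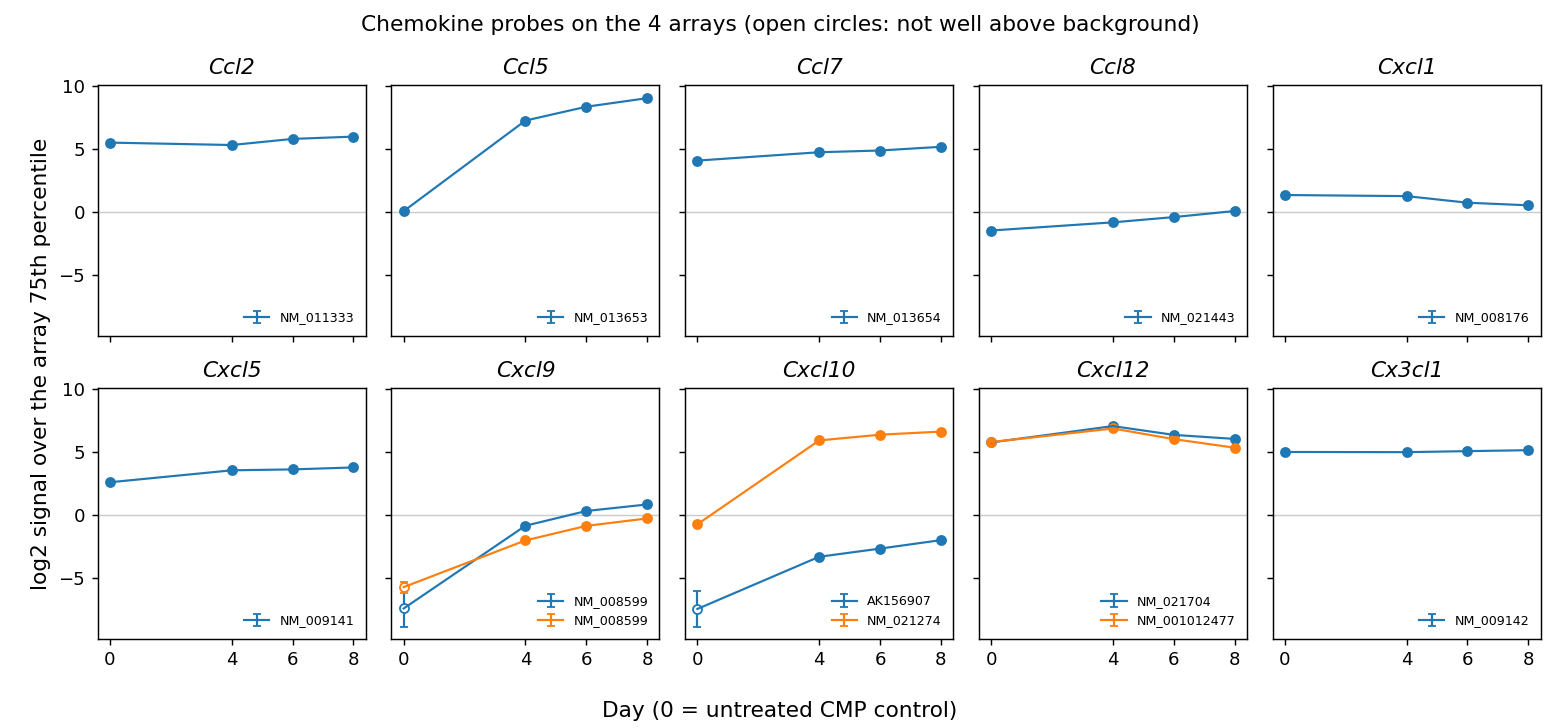
Each panel plots the log2 signal over the 75th percentile of the array for the probes of 1 chemokine gene against the day, with day 0 for the CMP control, bars of 1 SD from the error model and open circles where a probe was not well above background. The open circles occur only on the control array, for both Cxcl9 probes and the AK156907 probe of Cxcl10, and the Cxcl12 probes peak at day 4 while those of Ccl5, Cxcl9 and Cxcl10 climb through day 8.

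Cxcl9 and Cxcl10 lie side by side on chromosome 5, with their measured probes 24.4 kb apart on mm9. The 250 bases before the annotated start of each gene are shown because these neighbours rose together, with those of Cxcl1, which lies on the same chromosome and did not rise. The sequences are those of RefSeq on GRCm38.p6, written 5′ to 3′ on the gene's strand, and came from chr5:92328080-92328329 for Cxcl9 and chr5:92348890-92349139 for Cxcl10, both minus, and chr5:90890995-90891244, plus, for Cxcl1. Capitals mark matches on either strand to the core of the interferon-stimulated response element, GAAANNGAA, and to a pair of kappaB patterns, GGGNNTTCC and GGNNTTTCC, which can match the same bases.
Cxcl9: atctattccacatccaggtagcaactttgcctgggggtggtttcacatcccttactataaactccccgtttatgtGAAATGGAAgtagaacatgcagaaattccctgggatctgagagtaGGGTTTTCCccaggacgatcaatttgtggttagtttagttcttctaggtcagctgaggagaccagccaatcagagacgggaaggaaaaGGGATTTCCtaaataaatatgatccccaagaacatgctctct
Cxcl10: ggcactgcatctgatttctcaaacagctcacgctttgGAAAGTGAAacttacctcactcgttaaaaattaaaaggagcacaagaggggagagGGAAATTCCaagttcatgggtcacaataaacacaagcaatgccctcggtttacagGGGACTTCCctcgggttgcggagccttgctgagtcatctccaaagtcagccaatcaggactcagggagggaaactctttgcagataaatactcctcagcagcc
Cxcl1: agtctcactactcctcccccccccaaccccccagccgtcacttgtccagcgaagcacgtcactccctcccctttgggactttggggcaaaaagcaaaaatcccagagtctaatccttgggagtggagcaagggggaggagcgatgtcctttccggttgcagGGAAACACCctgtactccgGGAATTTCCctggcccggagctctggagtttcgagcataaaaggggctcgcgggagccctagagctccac

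The interferon-type core was found in Cxcl9 as GAAATGGAA, 175 to 167 bases before the start, and in Cxcl10 as GAAAGTGAA, 213 to 205 bases before it. Over 32851 RefSeq promoters, 7.13% held this pattern in a window of the same length. A kappaB pattern was found in Cxcl9 as GGGTTTTCC and GGGATTTCC, in Cxcl10 as GGGACTTCC and GGAAATTCC, and in Cxcl1 as GGAATTTCC and GGAAACACC, and 8.36% of all promoters held at least 1 match. The windows of Ccl8, Cxcl12 and Cx3cl1, the other members among the 6 genes with a sequence in the RefSeq table, held no match to these patterns, and the gamma-activated site pattern TTCNNNGAA, found in 7.02% of promoters, had no match in any of the 6. The printed windows were picked by the changes of their genes. Ccl8 was also at least 2-fold higher at day 8, and Ccl2, Ccl5, Ccl7 and Cxcl5 had no sequence to search. A match describes the letters only, the arrays did not measure binding, and a link between matches and changes was not tested.

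The CC chemokines Ccl2, Ccl7 and Ccl8, known as monocyte chemoattractant proteins, changed less than Ccl5, Cxcl9 and Cxcl10. Ccl2 and Ccl7 act on monocytes through Ccr2, and mouse Ccl8 signals through Ccr8. Their genes stand in one cluster on chromosome 11, with probes 9.95 kb apart for Ccl2 and Ccl7 and 69.4 kb apart for Ccl7 and Ccl8. At day 8, Ccl7 and Ccl8 were at least 2-fold higher than in the CMP control and Ccl2 was not.

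The relative signal of Ccl8 (NM_021443, chr11:81930108-81930167, plus strand) was 0.366 in the CMP control and 0.572, 0.763 and 1.07 on days 4, 6 and 8. The changes of this dim signal were 0.65 ± 0.21, 1.06 ± 0.21 and 1.54 ± 0.21, past 2-fold from day 6 on, and 41.9% of the day 8 change was present at day 4. The day 6 change fell short of 2-fold with normexp correction (0.81), quantile normalization (0.97) and the array median as the scale (0.93). Ccl7 (NM_013654, chr11:81860656-81860715, plus strand) stood at 16.9, 26.7, 29.3 and 35.9 in the same order. The changes were 0.66 ± 0.20, 0.80 ± 0.20 and 1.09 ± 0.20, which passed 2-fold at day 8 alone, at 2.13-fold, or a log2 change of 0.82 with the array median as the scale.

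Ccl2 (NM_011333, chr11:81850650-81850709, plus strand) was the member with the smallest measurement error, since its probe was printed on 10 spots with an SD between spots of 0.039 to 0.064 on the log2 scale. The relative signal was 45.2 in the CMP control and 39.6, 55.3 and 62.8 on days 4, 6 and 8. The day 4 array was thus the lowest, with a change of -0.19 ± 0.06, and the changes at day 6 and day 8 were 0.29 ± 0.06 and 0.47 ± 0.06. From day 4 to day 8, Ccl2 was 1.59-fold higher. With quantile normalization the day 4 change was -0.02 and the day 8 change 0.77, and with the array median as the scale they were -0.34 and 0.21.

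Cxcl5 and Cxcl1 attract neutrophils through Cxcr2, and their probes lie 131 kb apart on chromosome 5. Cxcl5 was at least 2-fold higher on days 6 and 8, while Cxcl1 passed 2-fold in neither direction on any day. Cxcl5 (NM_009141, chr5:91190490-91190549, plus strand) had a relative signal of 6.06 in the CMP control and 11.7, 12.3 and 13.6 on days 4, 6 and 8. The changes were 0.94 ± 0.20, 1.02 ± 0.20 and 1.17 ± 0.20, and 80.6% of the day 8 change was present at day 4, with steps after day 4 that were smaller than the error. Scaled by the array median, the day 6 and day 8 changes were 0.88 and 0.90, and with normexp correction the day 6 change was 0.99.

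Cxcl1 (NM_008176, chr5:91321845-91321904, plus strand) was the single gene of the 10 with a smaller signal at every step. Its relative signal was 2.56 in the CMP control and 2.41, 1.68 and 1.46 on days 4, 6 and 8. The change of -0.09 ± 0.20 at day 4 was within the error, and the changes at day 6 and day 8 were -0.61 ± 0.20 and -0.81 ± 0.20, or 1.52-fold and 1.76-fold lower. Scaled by the array median, it was -1.08 at day 8.

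Cxcl12, also known as SDF-1, holds progenitor cells in their niche through Cxcr4 and is taken up by the scavenging receptor Ackr3. It was the single member with a peak at day 4. The probe to NM_021704 (chr6:117125026-117125085, plus strand) had a relative signal of 53.7 in the CMP control and 132, 81.3 and 65.2 on days 4, 6 and 8. The probe to NM_001012477 (chr6:117131227-117131286, plus strand) had 54.8, 115, 64.5 and 40.2. The array files describe these accessions as transcript variants 1 and 3.

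At day 4 both Cxcl12 probes were higher, by 1.29 ± 0.20 and 1.07 ± 0.20, or 2.45-fold and 2.11-fold. From day 4 to day 8 the signal fell by 1.01 ± 0.20 on the variant 1 probe and fell by 1.52 ± 0.20 on the variant 3 probe, or 2.02-fold and 2.87-fold lower. At day 8 the variant 1 probe was at 0.28 ± 0.20 and the variant 3 probe at -0.45 ± 0.20 from the control, on either side of 0. The difference between the changes of the probes was 0.22 ± 0.29, 0.36 ± 0.29 and 0.73 ± 0.29 on days 4, 6 and 8. Their mean was 1.18 ± 0.14, 0.42 ± 0.14 and -0.08 ± 0.14, and the day 8 mean was 0.23 with quantile normalization, so no direction is given for Cxcl12 at day 8.

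Cx3cl1, or fractalkine, is a membrane-anchored chemokine that can be shed and binds Cx3cr1 on monocytes and microglia. Its relative signal (NM_009142, chr8:97306185-97306244, plus strand) was 31.9 in the CMP control and 31.6, 33.4 and 35.2 on days 4, 6 and 8. The changes of -0.01, 0.07 and 0.14 were all within the error of 0.20. The day 8 value was 0.39 with quantile normalization and -0.13 with the array median as the scale.

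Over all members, 8 of the 13 probes had a larger signal at every step from the control to day 8, 1 had a smaller signal at every step and 4 kept neither order. The share of all probes in either order was not computed, so these counts have no reference. Some of the steps were within the error, as for Cxcl5 after day 4 (0.07 ± 0.20 and 0.15 ± 0.20) and Ccl7 from day 4 to day 6 (0.14 ± 0.20). The genes whose every probe had a larger signal at every step were Ccl5, Ccl7, Ccl8, Cxcl5, Cxcl9 and Cxcl10, which were also the 6 genes at least 2-fold higher at day 8. Both lists use the same control and day 8 arrays, so their overlap is no separate result.

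**Figure D3:**
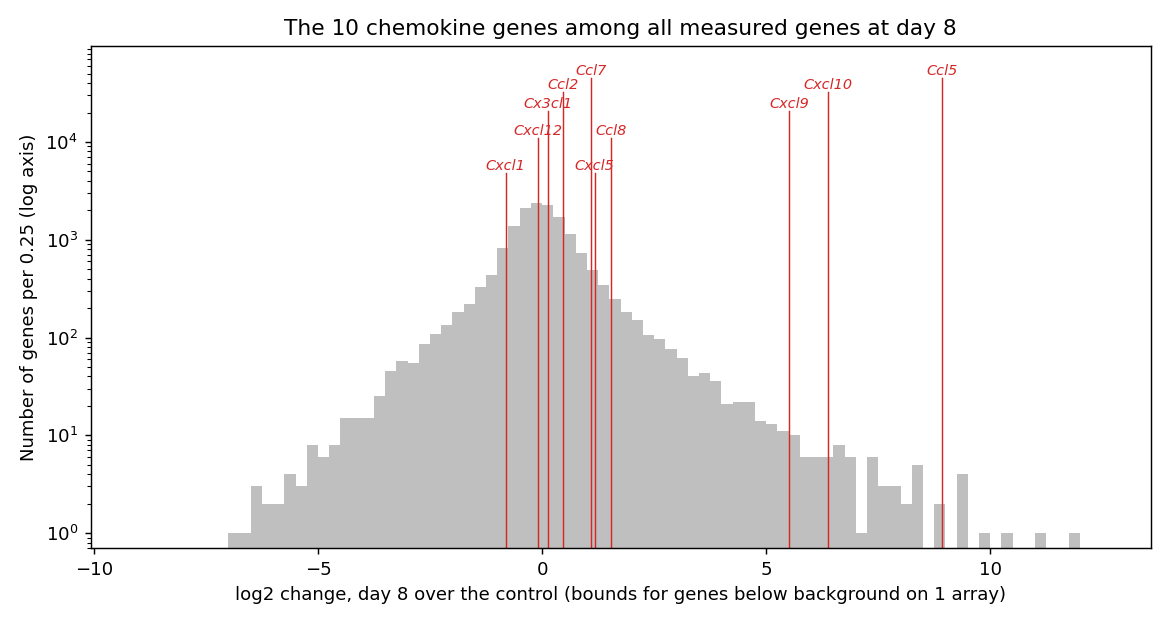
The histogram counts all measured genes by their log2 change from the CMP control to day 8, in steps of 0.25 and on a log axis, and red lines mark the 10 chemokine genes. Ccl5, Cxcl9 and Cxcl10 lie in the thin upper tail and the other 7 lie between -0.81 and 1.54.

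Of 22 chemokine receptor genes, 10 were detected on at least 1 array. Among the receptors of the chemokines above, Ccr1, Ccr2, Cxcr2, Cxcr3 and Cx3cr1 were not detected on any array. Ccr3 was above background at day 4 and day 8 only. Ccr8, named after its values were seen, changed by 0.44 ± 0.35, 0.85 ± 0.33 and 0.42 ± 0.34. Cxcr4 was detected in the CMP control alone and was at least 2.31-fold, 2.24-fold and 2.53-fold lower on the 3 later arrays. The other Cxcl12 receptor, Ackr3, was detected on all arrays and rose by 1.49 ± 0.20, 1.52 ± 0.20 and 1.86 ± 0.20.

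The remaining atypical receptors bind chemokines without classical G protein signalling. Ackr4, which takes up Ccl19, Ccl21 and Ccl25, was 35.6-fold lower at day 4 and fell by 5.16 ± 0.16, and at day 6 and day 8 its change was -3.34 ± 0.15 and -3.01 ± 0.14. Ackr2, a scavenger of inflammatory CC chemokines, changed by 0.85 ± 0.28, 1.32 ± 0.27 and 1.32 ± 0.27, and Ackr1 by -0.51 ± 0.23, -0.93 ± 0.24 and -1.22 ± 0.25. Ccr10 was not well above background in the control and was higher by at least 1.94 at day 8. In all, 3 of the 10 detected receptor genes were higher and 3 lower at day 8, beside 12.4% and 10.6% of all genes, with a median change of 0.37.

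Of 30 other chemokine genes listed, 27 were found on the array and 18 were detected. At day 4, 5 of the 18 were higher and 5 lower, at day 6 10 and 5, and at day 8 7 and 5, with medians of 0.33, 1.05 and 0.79. Over all genes, 10.1%, 11.1% and 12.4% were higher on these days and 8.33%, 10% and 10.6% lower. Ccl19, a homeostatic ligand of Ccr7, rose by 3.29 ± 0.12, 4.19 ± 0.12 and 4.73 ± 0.12, with its 3 probes between 4.11 and 5.65 at day 8. Cxcl13, the B cell attractant, was not well above background in the control and was at least 92.1-fold, 71.3-fold and 54.0-fold higher, so that it was brightest at day 4. Cxcl11, named here after its values were seen, changed by 0.46 ± 0.14, 0.49 ± 0.14 and 0.72 ± 0.14. These means of its 2 probes stayed below 2-fold on all 3 days, with the probes at 0.43 and 1.01 at day 8.

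Among the chemokines that fell, Pf4, the platelet and myeloid chemokine, was 25.9-fold, 17.6-fold and 17.1-fold lower. Cxcl14 changed by -2.58 ± 0.21, -3.56 ± 0.23 and -3.52 ± 0.22, and Ccl17, a ligand of Ccr4, by -2.96 ± 0.21, -3.46 ± 0.22 and -3.10 ± 0.21. Of the genes not well above background in the control, Ccl28 was higher at day 8 by at least 2.49, Ccl4 by at least 2.18 and Cxcl15 by at least 1.72. The day 8 bounds of Cxcl17 and Ccl24 were 0.999 and 0.56, short of 2-fold. Ccl24 was brightest at day 4, where it was higher by at least 2.80. Within the chemokine family the direction of change thus differed from gene to gene on the same arrays.

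**Figure D4:**
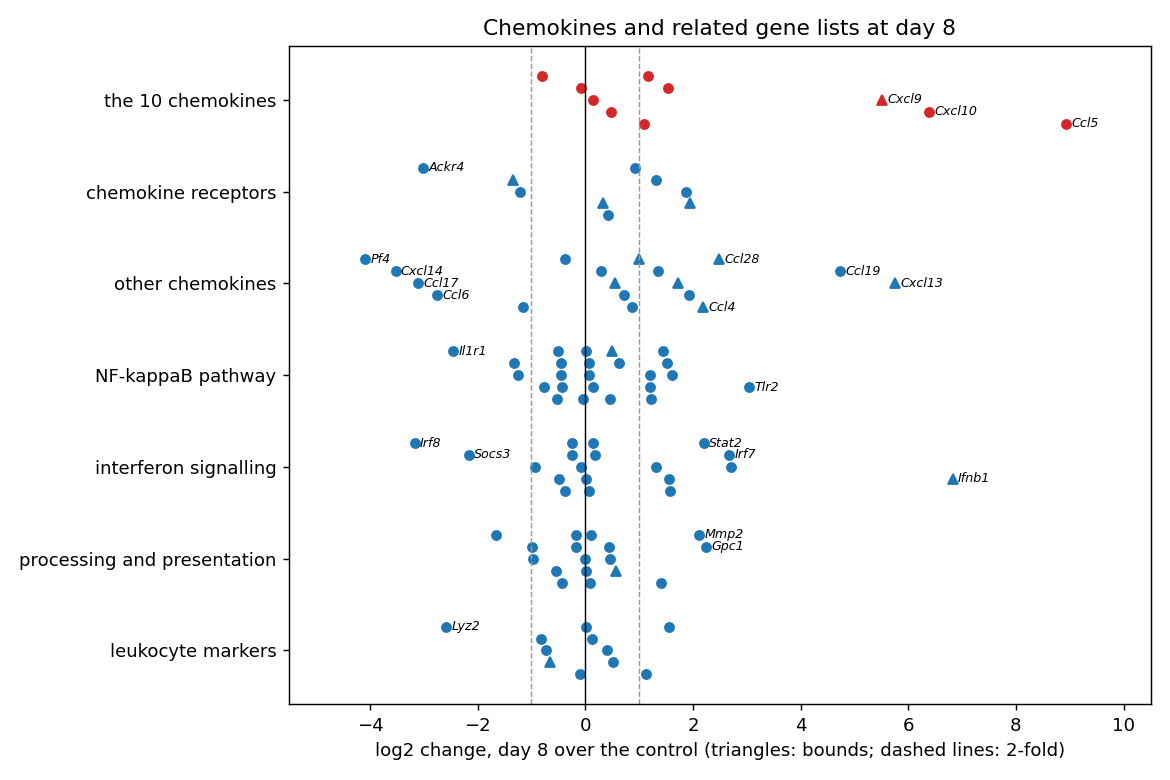
Each point is 1 gene of a list at its log2 change from the CMP control to day 8, with triangles for bounds, dashed lines at 2-fold and names for most genes past about 2 log2 units. The 10 chemokine genes (red) reach 8.93 with none past 2-fold lower, while the other chemokines run from -4.09 to 5.76.

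The genes that carry interferon signals were described because Cxcl9, Cxcl10 and Ccl5 are known interferon targets. Of 20 such genes, 19 were detected, and 6, 6 and 7 were higher on the 3 days while 2, 3 and 2 were lower, with medians of -0.02, 0.12 and 0.06. The shares of all genes were 10.1%, 11.1% and 12.4% higher and 8.33%, 10% and 10.6% lower, so that the lower counts were near the share over all genes. Ifnb1, which encodes interferon beta, was not well above background in the CMP control and was at least 55.3-fold, 74.9-fold and 114-fold higher on days 4, 6 and 8. Ifng, which encodes interferon gamma, was detected on no array. Stat2, a subunit of the complex that carries type I interferon signals to the nucleus, rose by 2.05 ± 0.20, 2.08 ± 0.20 and 2.20 ± 0.20, and Irf7, which amplifies type I interferon, by 2.56 ± 0.20, 2.66 ± 0.20 and 2.67 ± 0.20. Irf8, a myeloid factor, moved the other way, with -3.63 ± 0.25, -3.70 ± 0.26 and -3.17 ± 0.23.

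Of 27 genes of the NF-kappaB pathway, 24 were detected, and 4, 6 and 7 were higher on the 3 days while 2, 2 and 3 were lower. The lower counts, and the higher count at day 4, were near the shares of all genes (8.33%, 10% and 10.6% lower, and 10.1% higher at day 4), and the higher counts at day 6 and day 8 stood beside 11.1% and 12.4%. The median change was 0.04, 0.11 and 0.07. Tlr2, a sensor of microbial products, rose by 3.04 ± 0.07, 2.87 ± 0.06 and 3.04 ± 0.07. The feedback inhibitors Nfkbie and Tnfaip3 rose by 1.60 ± 0.20 and 1.51 ± 0.20 at day 8. Il1r1, the receptor for interleukin 1, changed by -2.19 ± 0.20, -2.25 ± 0.20 and -2.45 ± 0.20, and its ligands Il1a and Il1b were detected on no array. Tnf was above background at day 6 and day 8 only, and its change was then at least 0.47 and 0.50, bounds short of 2-fold.

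Chemokines are held on heparan sulfate and trimmed by proteases, and 17 of 18 genes of these steps were detected. At day 8, 3 of them were higher and 1 was lower, near the 12.4% and 10.6% of all genes, with a median of 0.02. The heparan sulfate carrier Gpc1 rose by 2.92 ± 0.20, 2.45 ± 0.20 and 2.24 ± 0.20, and the sulfotransferase Hs6st1 by 1.65 ± 0.51, 1.68 ± 0.50 and 1.41 ± 0.50, with probes at 0.90 and 1.92 at day 8. Sdc3, another carrier, changed by -0.87 ± 0.20, -1.34 ± 0.20 and -1.66 ± 0.20. Mmp2, a protease that cleaves Cxcl12 and Ccl7, rose by 1.39 ± 0.20, 2.25 ± 0.20 and 2.12 ± 0.20. Mmp9, not well above background in the control, had a change of at least 0.57 at day 8, a bound short of 2-fold. Dpp4, whose product trims Cxcl10, Ccl5 and Cxcl12, was detected on no array.

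Markers of the progenitors and of other cells were read on the same arrays. All 7 markers of mesenchymal progenitors were detected on every array. At day 8, 1 was higher and 2 were lower, beside 12.4% and 10.6% of all genes, with a median change of -0.23. Ly6a, which encodes Sca-1, rose by 2.69 ± 0.20, while Thy1 was 3.43-fold and Eng 2.28-fold lower, as both were on the earlier days. Of 13 leukocyte markers, 11 were above background in the control and 9, 10 and 10 at the later times. Their summed relative signal was 4.15 in the control and 4.37, 4.17 and 4.09 in OSKM-CMPs, and Cd3e, which passed 2-fold on no day, had the largest share of that sum. Single markers went both ways. Lyz2 was 9.05-fold, 11.6-fold and 5.98-fold lower, whereas Cd68 rose by 1.04 ± 0.43, 1.49 ± 0.42 and 1.56 ± 0.42, Coro1a by 1.13 ± 0.23, 1.16 ± 0.23 and 1.12 ± 0.23, and Cd14 by 1.06 ± 0.21 at day 4 alone. Ptprc, which encodes CD45, was at 0.02 ± 0.36 at day 8, while Laptm5 was detected on no array. Tyrobp was detected in the control alone, and at day 8 its signal was at least 1.57-fold below the control, a bound short of 2-fold.

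The summed relative signal of 7 endothelial markers was 2.02 in the control and between 1.18 and 1.29 in OSKM-CMPs. On each day 4 of them were lower, against 8.33%, 10% and 10.6% of all genes on days 4, 6 and 8. The 3 detected of 4 smooth muscle markers, Acta2, Tagln and Cnn1, were lower on every day, against the same shares of all genes. At day 8 they were lower by 34.0-fold, 27.4-fold and 37.9-fold. Their summed relative signal was 580 in the control and 36.9, 20.3 and 19.1 later. Of 6 cardiomyocyte markers 5 were detected, with a summed relative signal of 11.96 in the control and 4.63, 6.71 and 4.13 later. Tnnt2, the largest part of that sum in the control, was 3.03-fold lower at day 8. Tnni3, not well above background in the control, was higher by at least 1.71. At day 8, 1 of these markers was thus higher and 1 lower, beside 12.4% and 10.6% of all genes, with a median change of 0.16. For 6 adipocyte markers the summed relative signal was 2.56 in the control and 19.5, 127 and 318 on days 4, 6 and 8. On these days 4, 5 and 5 of them were higher, against 10.1%, 11.1% and 12.4% of all genes. Fabp4 rose by 5.78 ± 0.20 at day 8. The part of other cell types in the chemokine changes was not tested.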

How the data were processed

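RNA from 4 conditions was hybridised to 1-colour Agilent SurePrint G3 mouse arrays, 1 array per condition, and all arrays were read in 1 scan. Per the file headers, the authors extracted the spots with Feature Extraction 10.7.3.1 (the submitters' processing notes name 9.5.3), and the deposited files give a background-subtracted Cy3 intensity, with a surrogate value on dim spots, its error and flags. The authors normalized these in GeneSpring GX11, and their deposited log2 table equals the log2 intensity less a constant per array (55675 probes, all within 0.01), with column medians of -4.22, -4.08, -4.09 and -3.96.

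Here, 3671 control spots of 62976 and 87 to 106 outlier spots per array were left out, spots of a probe were averaged on the log2 scale, and the 75th percentile of each array (signals of 388.5 to 411.0) was subtracted. No spot was saturated. A gene took the mean of its probes detected on 1 or more arrays (35540 probes in all), so the Cxcl10 mean includes a control value not well above background. Where no such probe of a gene was above background on an array, the change is a bound against the higher of its own signal and the lowest signal well above background on that array. Probes were named by the array files, and for the counts over all genes 31065 were named through RefSeq tables of GRCm38.p6; probe positions are those of the files, on mm9. The number of arrays limits the precision, and no test was made. The members and gene lists were chosen with earlier results of these data known.

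The genes named are the 10 members, the receptors of the members, for each list up to 4 genes with the largest change at day 8 among those detected both in the control and at day 8, those detected on 1 of these arrays, and the 3 genes nearest in pattern to the member with the largest rise and the largest fall. A few genes that this rule would name are not reported here. Marker genes are named as checks of the cultures. The alternatives were normexp correction (offset 50), quantile normalization, scaling by the array median, the authors' values, dim values raised to a floor, the brightest probe in place of the mean, other filters on dim probes, outlier spots kept, and thresholds of 1.5-fold and 3-fold. The scripts were tested on simulated data. Python 3.11.15, numpy 2.4.6, pandas 2.3.3, R 4.3.3 and limma 3.58.1 were used.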

Additional observations from a re-analysis of the deposited data

How the results depend on the processing

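No paired analysis was possible because there was a single array for each condition. Of 267 changes of single members under the alternatives, 230 moved by less than the error and 37 by more, and 0 changes larger than the error changed sign. Of the 230, 30 each came from the authors' values, outlier spots kept and no filter on dim probes. These settings left the members' values equal or nearly equal to the main ones, so they say little about how far the changes hold. The number of members higher at day 6 became 3 under normexp correction, 3 with the array median as the scale and 3 at 3-fold; at day 8 it was 3 at 3-fold, and at day 4 it was 7 at 1.5-fold. The number lower became 1 at day 8 with the array median as the scale, and 1 at day 6 and 1 at day 8 at 1.5-fold, each time Cxcl1. Normexp correction called 5.01% of all genes higher and 5.10% lower at day 4, 5.76% and 6.40% at day 6, and 6.14% higher at day 8. Scaling by the array median shifted the median gene to -0.14, -0.15 and -0.30 on the 3 days, and 16.0% of genes were lower at day 8. At 1.5-fold, 17.9% of all genes were higher and 17.0% lower at day 4, 18.8% and 19.2% at day 6, and 20.8% and 20.5% at day 8. At 3-fold these were 5.61% and 3.82%, 6.28% and 4.87%, and 6.76% and 5.53%. The threshold alone sets the last 2 groups of values; for the others the cause was not tested. With only probes above background on all arrays, Cxcl9 had no value. Signals near background limit the Cxcl9 and AK156907 values in the control to bounds.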

Other observations

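Among 14496 genes well above background on all arrays, the genes whose changes on the 3 days lay nearest to those of Ccl5 were Inmt, at a Euclidean distance of 0.61 log2 units with changes of 7.32, 8.65 and 9.37, Gdpd2 at 1.09 and Mal at 1.15. Inmt encodes a methyltransferase of small amines. Nearest to Cxcl1 were Ccdc163 at 0.04, Hspa1a, a heat shock protein gene, at 0.05, and Dock11 at 0.06. These distances rest on 3 differences that share the control array.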
